A study of Canis lupus familiaris with 18 samples.

Results

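The genes described here are 10 genes of endothelial cells and of the angiopoietin system: PECAM1, CDH5, KDR, FLT1, TEK, TIE1, VWF, ENG, ANGPT1 and ANGPT2. They were found through the platform annotation as every probe set (a group of short probes for 1 transcript) that carries 1 of these symbols and no other. This gave 22 of 42924 probe sets that are not array controls. Of the 22, 20 passed the filter on low values, with at least 1 for each of the 10 genes, among 8656 genes with a tested probe set. The exceptions were 2 probe sets of CDH5, which lay below log2 4 in all 18 arrays.

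The arrays are Affymetrix canine arrays of fat from 9 intact female beagles aged 4 years, all on the same diet and sampled after an overnight fast at 24 weeks. The 4 groups were gonadal fat of dogs fed ad libitum (5 dogs, numbers 2, 5, 6, 7 and 8), gonadal fat of control dogs fed to hold their starting weight (4 dogs, numbers 1, 3, 4 and 9), and subcutaneous fat of the same 5 ad libitum and 4 control dogs. The series text calls the ad libitum dogs obese and the control dogs lean. Per the labels, only the subcutaneous arrays had been deposited once before, processed in another way. A batch of arrays and the depot therefore cannot be told apart. Values are log2 signals, differences are log2 differences, and errors after ± are standard errors unless SD is given.

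Endothelial cells line blood vessels and are held together by junction proteins, among them PECAM1 and the vascular cadherin CDH5. They respond to VEGF through the receptors KDR, which carries most of the growth signal, and FLT1, which binds VEGF tightly and in part acts as a trap. The receptor TEK, also named TIE2, is activated by ANGPT1 from cells around the vessel, which favours quiet, sealed vessels. ANGPT2, released by endothelial cells, can oppose ANGPT1, and TIE1 is a related receptor that modulates TEK. Fat tissue is rich in capillaries, and its vessels grow and regress with the fat mass. These are whole-tissue arrays, in which fewer cells of a type and less RNA per cell cannot be told apart.

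Before the groups are compared, several arrays stood apart. The adipocyte list (8 genes) had a median between 10.93 and 13.23 in all 18 arrays, so every array carried the adipocyte markers of its label. The skeletal muscle list had a median of 9.66 in gonadal fat of dog 2 and of 11.88 and 9.72 in subcutaneous fat of dogs 3 and 4. It was 5.84 in subcutaneous fat of ad libitum dog 7, against 3.23 to 3.66 in the remaining arrays. The ciliated epithelium list stood at 7.20 in gonadal fat of dog 6 and at 5.84 in subcutaneous fat of dog 4. A later setting leaves out 4 arrays with skeletal muscle or ciliated genes: gonadal of dogs 2 and 6, subcutaneous of dogs 3 and 4. It keeps the subcutaneous array of dog 7. Only dogs 1 and 9 then remain in the subcutaneous control group, and dogs 5, 7 and 8 in the gonadal ad libitum group. The pericyte and smooth muscle list (9 genes) stood at 11.18 in gonadal fat of dog 6 and at 12.56 in gonadal fat of dog 3, against 8.53 to 10.22 in the other 7 gonadal arrays. Calls of the 10 genes and of their pathway lists that move without the gonadal arrays of dogs 6 and 3 are given both ways.

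The gonadal array of dog 6 had the lowest value among the 9 gonadal arrays for 8 of the 10 genes, and that of dog 3 was lowest or second lowest for 9 of the 10. The median deviation of the 10 genes from the median of the depot was -1.06 in dog 6 and -0.63 in dog 3, and between -0.19 and 0.33 in the other gonadal arrays. ANGPT1 lay far below its depot median in both arrays, at 3.50 in dog 6 and at 4.12 in dog 3. The value of dog 6 is under the floor of log2 4, where a signal is not told from background, so the size of its deviation is not given as a measurement. Within the pericyte and smooth muscle list, MYH11 and CNN1, contractile genes of smooth muscle, were higher in these arrays than in any other gonadal array. For dog 6 the lead over dogs 8 and 9 was small. MYH11 was 13.60 in dog 6 and 14.96 in dog 3, against 13.34 and 13.33 in dogs 8 and 9. CNN1 was 11.18 in dog 6 and 13.71 in dog 3, against 10.22 and 10.15 in dogs 8 and 9. ACTA2 and TAGLN, contractile genes of the same list, were 14.13 and 14.42 in dog 6, below dogs 8 and 9, and 14.96 and 15.79 in dog 3, the highest of the depot. RGS5, known from pericytes, and MCAM, known from pericytes and endothelium, are also on that list but were at their lowest there, with RGS5 at 6.26 in dog 6 and 6.99 in dog 3, against 8.22 to 9.38 in the other 7. The adipocyte list stood at 10.93 and 11.40 in the arrays of dogs 6 and 3, against 12.24 to 13.07 in the other 7 gonadal arrays. A list of other endothelial genes (22 on the array) stood at 5.77 and 6.54, against 6.84 to 7.34 in the other 7. In subcutaneous fat the array of dog 3, with the highest skeletal muscle list, was lowest for 6 of the 10 genes (median deviation -0.57). The part that other tissue in these arrays plays in the values was not tested.

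**Figure D1:**
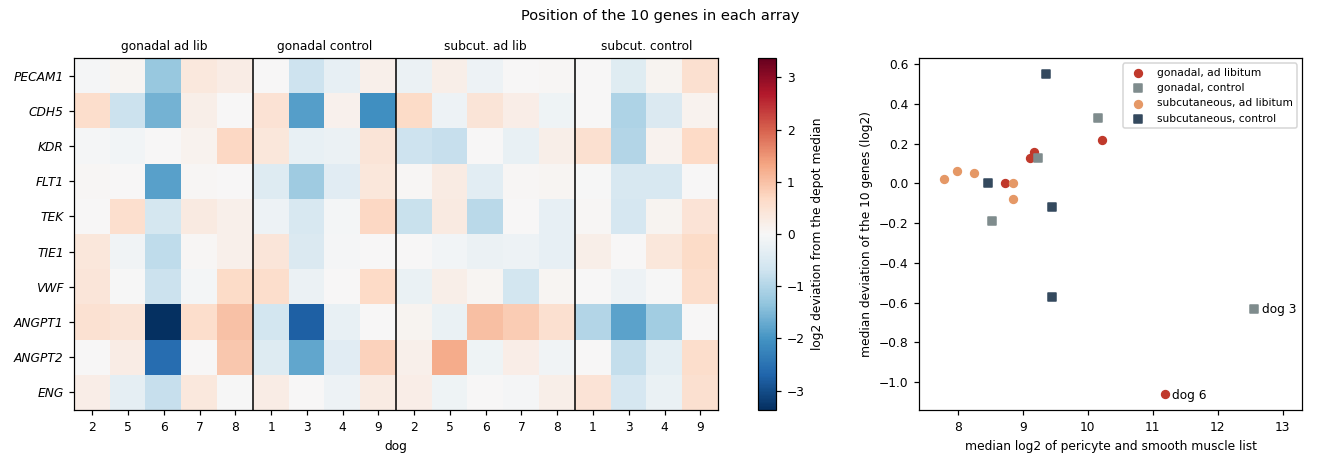
Left, log2 deviation of each of the 10 genes (rows) from the median of its depot in each of 18 arrays (columns, by dog number, in 4 groups). Right, the median of these deviations in each array (log2) against the median log2 signal of the pericyte and smooth muscle list; the gonadal arrays of dogs 6 and 3 lie lowest, at -1.06 and -0.63, and farthest to the right, at 11.18 and 12.56.

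None of the 10 genes passed the threshold of 0.05 on the adjusted p (limma with Benjamini-Hochberg adjustment over 21484 probe sets) in any of 5 comparisons, and 0 of 10 had an unadjusted p under 0.05. Over all genes tested, 2.31% were called for feeding in subcutaneous fat, 0.0% for feeding in gonadal fat, 7.45% for depot in ad libitum dogs, 2.95% for depot in control dogs and 0.0% for the interaction of depot and feeding. The shares of all genes with an unadjusted p under 0.05 were, in the same order, 23.7%, 2.4%, 24.5%, 19.6% and 6.3%. The median difference of the 10 genes was -0.05 and 0.07 for feeding in subcutaneous and gonadal fat, and -0.04 and -0.16 for depot in ad libitum and control dogs. Over all genes these medians were 0.0, 0.0, -0.02 and 0.02. With 4 or 5 dogs a group the standard errors of the 10 genes for feeding ran between 0.22 and 0.75, so the intervals leave room for sizeable differences, above all for ANGPT1, ANGPT2 and CDH5.

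**Figure D2:**
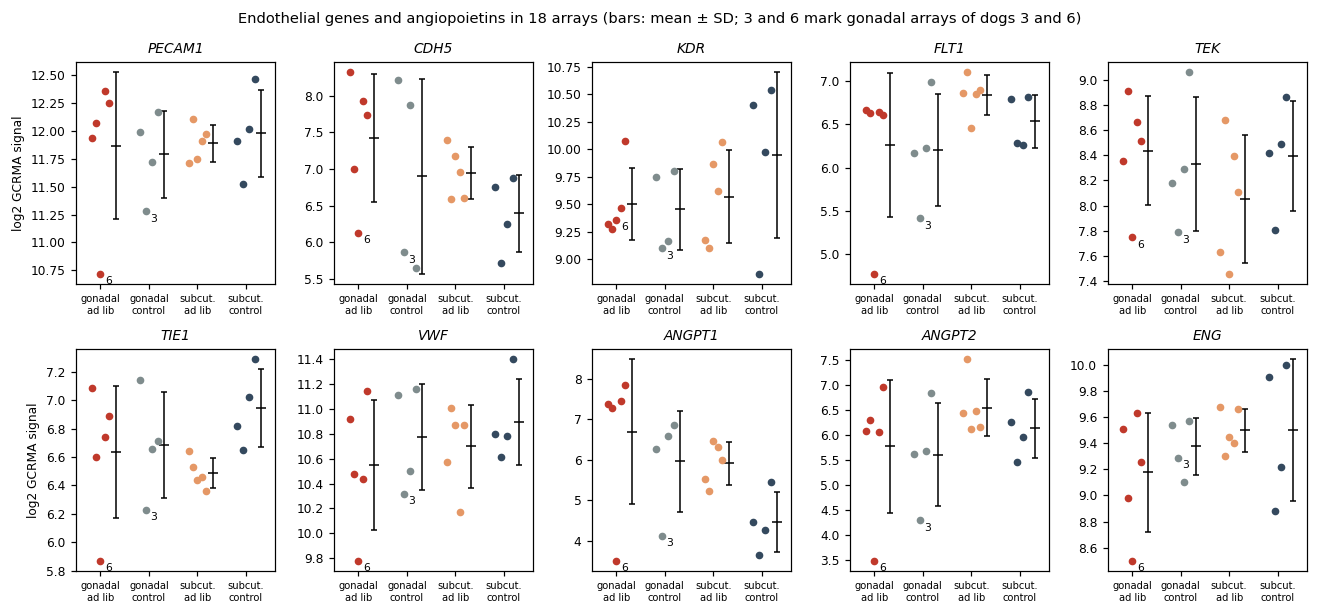
Log2 GCRMA signal of the 10 genes in each array, in gonadal fat of ad libitum and control dogs and in subcutaneous fat of ad libitum and control dogs; points are single arrays, and the bar beside them is the mean ± SD (n = 5, 4, 5 and 4). The groups overlap for all genes but TIE1 in subcutaneous fat, where the ad libitum arrays lie at or below 6.64 and the control arrays at or above 6.65.

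ANGPT1, the ligand that activates TEK, had the widest differences. In gonadal fat its values were 7.38, 7.29, 3.50, 7.46 and 7.85 in ad libitum dogs 2, 5, 6, 7 and 8. In gonadal fat of control dogs 1, 3, 4 and 9 they were 6.26, 4.12, 6.60 and 6.87. Dog 6 had the lowest gonadal value of all, so the feeding groups overlapped in gonadal fat. In subcutaneous fat the ad libitum dogs had 5.53, 5.23, 6.47, 6.32 and 6.00. The control dogs had 4.47, 3.65, 4.27 and 5.45 there, so that only control dog 9 reached into the ad libitum range. By group mean the order was 6.70 ± 1.80 (SD, n = 5) in gonadal fat of ad libitum dogs, 5.96 ± 1.25 (n = 4) in gonadal fat of control dogs, 5.91 ± 0.52 (n = 5) in subcutaneous fat of ad libitum dogs and 4.46 ± 0.75 (n = 4) in subcutaneous fat of control dogs. Neighbours in this order overlapped in their ranges.

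The ANGPT1 difference between ad libitum and control dogs was 1.45 ± 0.75 in subcutaneous fat, a 2.73-fold ratio with a 95% interval of 0.91 to 8.21 (limma, adjusted p = 0.25). In gonadal fat it was 0.73 ± 0.75 (adjusted p = 1.0). The gonadal minus subcutaneous difference was 0.79 ± 0.71 in ad libitum dogs (adjusted p = 0.54) and 1.5 ± 0.79 in control dogs (adjusted p = 0.303). Within dogs, gonadal fat was higher in 8 of 9, by a median of 1.79 over all 9 dogs, and dog 6 ran the other way. Its gonadal value of 3.50, like the subcutaneous value of 3.65 in control dog 3, lies below the floor of log2 4, so differences that use them are uncertain in size. The test of the feeding difference in gonadal against subcutaneous fat gave -0.71 ± 1.06 (adjusted p = 0.873, 95% interval -2.96 to 1.53). It had the other sign without dog 6 (0.23) and without the 4 arrays with skeletal muscle or ciliated genes (0.63), so it has no settled direction.

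Without the gonadal arrays of dogs 6 and 3, an alternative chosen after the values were seen, ANGPT1 passed the limma threshold in 3 comparisons. These arrays are also the lowest gonadal ones for ANGPT1 itself. Feeding in subcutaneous fat then had the same difference of 1.45 with an adjusted p of 0.0194. No subcutaneous array was left out, so this call moved through the estimate of the spread, its degrees of freedom and the adjustment over all probe sets, which were not separated. In a fit to the 9 subcutaneous arrays alone the adjusted p was 0.0782. Gonadal minus subcutaneous became 1.59 in ad libitum dogs (adjusted p = 0.00907) and 2.12 in control dogs (adjusted p = 0.00898), while feeding in gonadal fat stayed uncalled at 0.92 (adjusted p = 1.0). Over all genes that alternative called 8.54%, 9.85% and 4.79% in the 3 comparisons with an ANGPT1 call. With the actin 3' minus 5' signal, a measure of RNA length, as a covariate, the subcutaneous feeding difference was 0.91 and the depot difference in control dogs 0.72. That signal was 2.61 to 4.40 in subcutaneous ad libitum arrays and 3.42 to 5.72 in subcutaneous control arrays. Without the 4 arrays with skeletal muscle or ciliated genes, the subcutaneous feeding difference was 0.95 (adjusted p = 0.489). Only control dogs 1 and 9 were left in subcutaneous fat there. In the same setting the feeding difference in gonadal fat was 1.57 (adjusted p = 0.808), and the depot difference was 1.63 in ad libitum dogs (adjusted p = 0.082) and 1.00 in control dogs (adjusted p = 0.489). The part of either measure in these differences was not tested further.

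**Figure D3:**
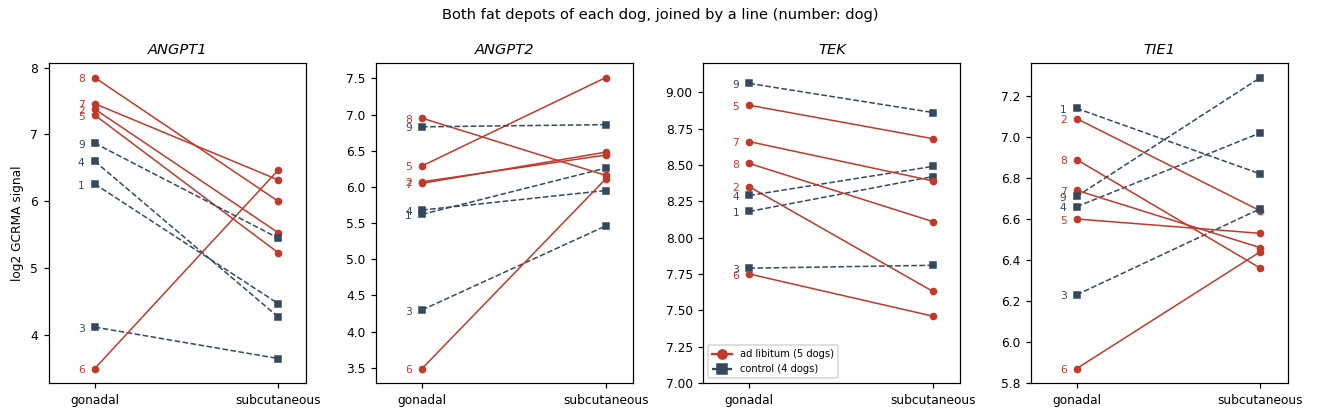
Log2 GCRMA signal of ANGPT1, ANGPT2, TEK and TIE1 in gonadal (left) and subcutaneous fat (right) of each dog, joined by a line; red circles and full lines are the 5 ad libitum dogs, blue squares and dashed lines the 4 control dogs, and numbers name the dog. ANGPT1 is higher in gonadal fat in 8 of 9 dogs, and ANGPT2 is lower there in 8 of 9.

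ANGPT2, the ligand that can oppose ANGPT1 at TEK, had values of 6.07, 6.29, 3.49 (below the floor), 6.05 and 6.95 in gonadal fat of ad libitum dogs. Gonadal fat of control dogs had 5.62, 4.30, 5.68 and 6.83. Dog 6 in the one group and dog 3 in the other were again the lowest. In subcutaneous fat ANGPT2 was 6.44, 7.51, 6.11, 6.48 and 6.16 in ad libitum dogs, with dog 5 standing above the rest. Subcutaneous fat of control dogs had 6.26, 5.46, 5.95 and 6.86. ANGPT2 was lower in gonadal fat in 8 of 9 dogs, the exception being ad libitum dog 8. The gonadal minus subcutaneous difference was -0.77 ± 0.56 in ad libitum and -0.53 ± 0.62 in control dogs, neither past the threshold (limma, adjusted p = 0.432 and 0.681). Without the gonadal arrays of dogs 6 and 3 these differences shrank to -0.20 and -0.09. With all arrays the other probe set of ANGPT2 gave depot differences of -0.3 ± 0.3 in ad libitum and -0.55 ± 0.34 in control dogs, also not called. The feeding differences were 0.41 ± 0.59 in subcutaneous and 0.16 ± 0.59 in gonadal fat, and the other probe set of ANGPT2 gave -0.15 ± 0.32 and 0.11 ± 0.32.

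TEK, the angiopoietin receptor, had 8.35, 8.91, 7.75, 8.66 and 8.51 in gonadal fat and 7.63, 8.68, 7.46, 8.39 and 8.11 in subcutaneous fat of ad libitum dogs 2, 5, 6, 7 and 8. Gonadal fat was the higher depot in 5 of 5 of these dogs, by 0.23 to 0.72, although the groups overlap. The difference was 0.38 ± 0.29 (limma, adjusted p = 0.453, and 0.0876 with the dog as a fixed block). In control dogs TEK had 8.18, 7.79, 8.29 and 9.06 in gonadal fat and 8.42, 7.81, 8.49 and 8.86 in subcutaneous fat, a difference of -0.06 ± 0.32. The difference between these depot effects was 0.45 ± 0.43 (adjusted p = 0.801). Feeding differences were -0.34 ± 0.31 in subcutaneous fat and 0.11 ± 0.31 in gonadal fat.

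TIE1, the receptor that modulates TEK, was the 1 gene of the 10 whose feeding groups did not overlap in subcutaneous fat. It had 6.64, 6.53, 6.44, 6.46 and 6.36 in ad libitum dogs and 6.82, 6.65, 7.02 and 7.29 in control dogs there. The groups are parted by 1 unit of the second decimal, and 10.5% of all genes had groups that did not overlap in that comparison. In the other comparisons 0 of the 10 genes had such groups, against 0.797% of all genes for feeding in gonadal fat, 9.48% for depot in ad libitum dogs and 13.1% for depot in control dogs. The means were 6.49 ± 0.11 (SD, n = 5) and 6.94 ± 0.28 (n = 4), a difference of -0.46 ± 0.22 with a 95% interval of -0.93 to 0.01 (limma, unadjusted p = 0.0564, adjusted p = 0.224). A second TIE1 probe set gave -0.56 ± 0.27, with groups that overlap (adjusted p = 0.229). In gonadal fat the difference was -0.05 ± 0.22, and the test of the difference between the depots gave 0.41 ± 0.32 (adjusted p = 0.767).

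Neither VEGF receptor passed the test. KDR had means of 9.50 ± 0.33 (SD, n = 5) and 9.45 ± 0.37 (n = 4) in gonadal fat of ad libitum and control dogs, and of 9.57 ± 0.42 (n = 5) and 9.95 ± 0.76 (n = 4) in subcutaneous fat. With CDH5 it was 1 of the 2 genes that were not lowest in the gonadal array of dog 6, where it had 9.36, the median of its group. The widest KDR difference was gonadal minus subcutaneous in control dogs, -0.49 ± 0.33 (limma, adjusted p = 0.427). It became -1.02 without the 4 arrays with skeletal muscle or ciliated genes, and it was still not called (adjusted p = 0.14). In that setting only dogs 1 and 9 were left in the subcutaneous control group. Subcutaneous KDR in control dogs was 10.40, 8.87, 9.98 and 10.54, with the lowest value in the array of dog 3.

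FLT1 had 6.66, 6.63, 4.78, 6.64 and 6.61 in gonadal fat of ad libitum dogs, 4 nearly equal values and dog 6 far below them. Their subcutaneous fat had 6.86, 7.10, 6.46, 6.85 and 6.89. It was lower in gonadal fat in 5 of 5 ad libitum dogs and in 3 of 4 control dogs, with differences of -0.57 ± 0.34 and -0.33 ± 0.38 (limma, adjusted p = 0.33 and 0.664). Without dog 6 the first was -0.29. The 3 probe sets of FLT1 disagreed on this direction: a second gave -0.37 and -0.03, and the last gave 0.44 and 0.72. The last lay near the floor, with group means of 4.31 to 5.19. Its values were below log2 4 in gonadal fat of dogs 6 and 3 and in subcutaneous fat of dog 4. Its differences are therefore uncertain in size, and no depot direction is given for FLT1.

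CDH5, the cadherin of endothelial junctions, varied most among the junction and surface genes. In gonadal fat it had 8.32, 7.00, 6.13, 7.93 and 7.73 in ad libitum dogs and 8.21, 5.87, 7.87 and 5.65 in control dogs. Unlike the other genes it was lowest in control dog 9, by 2.07 below the depot median, an array in which ANGPT2 was 0.78 above it. In subcutaneous fat it had 7.39, 6.59, 7.18, 6.96 and 6.61 in ad libitum dogs and 6.75, 5.72, 6.25 and 6.87 in control dogs. CDH5 was higher in gonadal fat in 7 of 9 dogs, with differences of 0.48 ± 0.49 in ad libitum and 0.51 ± 0.55 in control dogs (limma, adjusted p = 0.599 and 0.643). Its other tested probe set averaged below log2 4 in every group, so no size is given for it. The actin 3' minus 5' signal was 4.84 and 4.03 in the gonadal arrays of dogs 6 and 9, the highest of that depot, and 1.91 in that of dog 1, where CDH5 was 8.21. It was 3.18 in that of dog 3, near the middle of the depot, where CDH5 was low at 5.87. With this signal as a covariate the depot difference was 0.39 in ad libitum dogs and -0.40 in control dogs. Leaving out 1 dog at a time, without the covariate, gave 0.13 to 1.08 in control dogs. The part of the actin signal in the CDH5 values was not tested further.

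For PECAM1, VWF and ENG, by the probe set with the highest mean, the 95% intervals of all feeding and depot differences lay between -0.83 and 0.69. Over their other probe sets they reached -1.13 and 1.60 for PECAM1 and 1.44 for ENG. PECAM1, an adhesion molecule of endothelial junctions that leukocytes and platelets also carry, had means of 11.87 ± 0.66 (SD, n = 5) and 11.79 ± 0.39 (n = 4) in gonadal fat of ad libitum and control dogs. The subcutaneous means were 11.89 ± 0.16 and 11.98 ± 0.39. Its depot difference in control dogs was -0.19 ± 0.30 by this probe set and between 0.11 and 0.63 by the other 3, so its direction is not settled. VWF, the clotting factor carrier stored in endothelial cells, had means of 10.55 ± 0.53 and 10.77 ± 0.43 in gonadal fat and 10.70 ± 0.33 and 10.90 ± 0.34 in subcutaneous fat of ad libitum and control dogs. ENG, a co-receptor of the BMP and TGF-beta pathway, had means of 9.18 ± 0.45 and 9.37 ± 0.22 in gonadal fat and 9.50 ± 0.17 and 9.51 ± 0.54 in subcutaneous fat. Its widest difference was gonadal minus subcutaneous in ad libitum dogs, -0.32 ± 0.23 (limma, 95% interval -0.81 to 0.17), and its other 2 probe sets gave 0.31 and -0.05. The median of the platelet list (5 genes on the array, of which 2 passed the filter) was between 2.24 and 3.50 in all arrays, below the floor of log2 4. The macrophage and leukocyte list stood at 4.47 to 6.58 in gonadal and 6.47 to 9.32 in subcutaneous arrays. The part of platelets or leukocytes in the PECAM1 values was not tested.

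**Figure D4:**
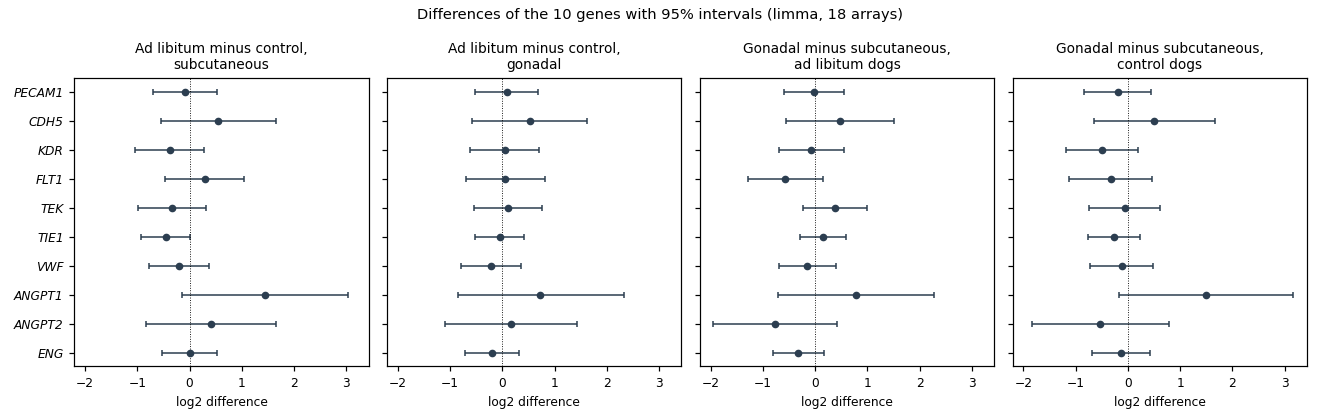
Log2 differences of the 10 genes with their 95% intervals (limma, 18 arrays), as ad libitum minus control in subcutaneous and in gonadal fat and as gonadal minus subcutaneous in ad libitum and in control dogs. All 40 intervals hold 0, and those of ANGPT1 are the widest and reach 3.04 and 3.17 at their upper ends.

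With the group means removed, the 10 genes varied together across arrays. All 45 pairs had a positive Pearson correlation over the 18 arrays, with a median of 0.63 and a range of 0.03 (CDH5 and TEK) to 0.94 (FLT1 and ANGPT2). Each dog gives a pair of arrays, and the 10 genes are read from the same arrays, some of which hold other tissue. These values therefore describe and test nothing. Without the gonadal arrays of dogs 6 and 3 the median was 0.35 and the range -0.45 to 0.78. CDH5 was then the least like the rest, with a median of -0.01 to the other 9 genes, while the median of PECAM1 was 0.58, against 0.79 over all arrays. Probe sets of the same gene correlated between 0.70 and 0.99.

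**Figure D5:**
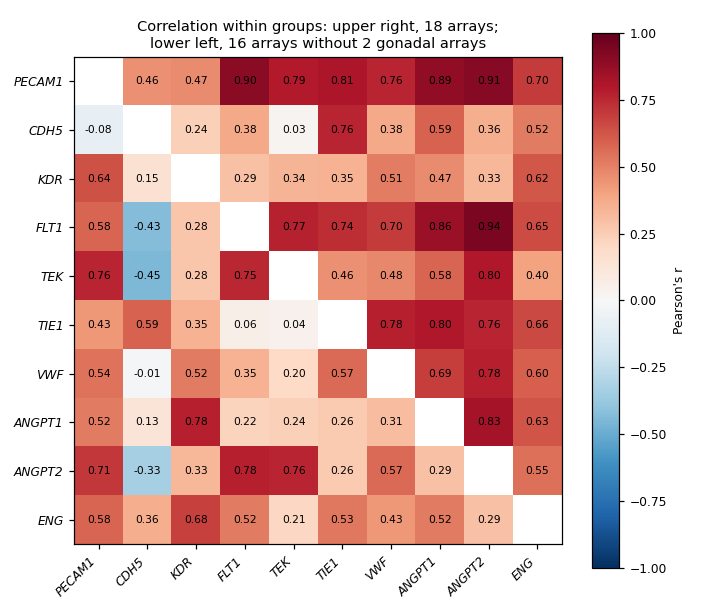
Pearson correlation between the 10 genes on log2 values with the 4 group means removed, over 18 arrays (upper right) and over the 16 arrays without the gonadal arrays of dogs 6 and 3 (lower left). The median over 45 pairs is 0.63 in the upper right and 0.35 in the lower left.

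The genes most like 3 of these genes over the 18 arrays, by the same measure, were as follows. ANGPT1 was most like the fatty acid carrier CD36 (r = 0.95), the growth factor receptor MET (0.93), SBDS (0.92), SH3GLB1 (0.92) and MYCT1 (0.92), which is also on the endothelial list. Without the gonadal arrays of dogs 6 and 3, MYCT1 led with 0.88 and the other 4 were replaced. CDH5 was most like IMPDH1 (0.95), CC2D1B (0.95), USP5 (0.94), TINAGL1 (0.93) and COL5A3 (0.91), of which IMPDH1 and USP5 stayed among the first 5 without those arrays. ANGPT2 was most like BANK1 (0.91), IRX3 (0.89), SH3KBP1 (0.88), IFFO1 (0.87) and PTPRR (0.86), and none of these stayed among the first 5.

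Calls among other genes of these pathways and of other tissues are given by list, here and in the paragraphs below. Over all genes, 2.31% were called for feeding in subcutaneous fat, 7.45% for depot in ad libitum dogs and 2.95% for depot in control dogs. Without the gonadal arrays of dogs 6 and 3 these shares were 8.54%, 9.85% and 4.79%. The lists are short, so their counts are not read against these shares. Of 18 other measured endothelial genes 0 were called in any comparison. The nearest was CD34, a surface protein of endothelial and stromal progenitor cells, with means of 8.92 ± 0.96 in gonadal and 10.47 ± 0.51 in subcutaneous fat of control dogs (SD, n = 4 each). Its difference was -1.56 ± 0.46 (limma, adjusted p = 0.0741). Of 7 measured VEGF ligands, co-receptors and the lymphatic receptor FLT4, 0 were called. Without the gonadal arrays of dogs 6 and 3, 1 was called, the co-receptor NRP1, which was higher in gonadal than in subcutaneous fat of control dogs by 1.18 (adjusted p = 0.029, against 1.03 and 0.126 with all arrays). VEGFA, the main ligand of KDR, had 11.13 ± 0.36 in gonadal and 10.30 ± 0.38 in subcutaneous fat of ad libitum dogs (SD, n = 5 each), a difference of 0.83 ± 0.25 (adjusted p = 0.0566). VEGFD, a ligand of lymphatic growth, differed by 1.68 ± 0.46 between the depots of control dogs (adjusted p = 0.058).

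Of 8 measured genes of the angiopoietin and TEK pathway, 1 rose in gonadal over subcutaneous fat in each feeding group, and it was SVEP1, an extracellular matrix protein known to bind ANGPT2 and TIE1. SVEP1 had 12.98 ± 0.51 in gonadal and 11.96 ± 0.21 in subcutaneous fat of ad libitum dogs (SD, n = 5 each), a difference of 1.01 ± 0.24 (limma, adjusted p = 0.0191). In control dogs it had 12.98 ± 0.42 and 11.93 ± 0.37 (n = 4 each), a difference of 1.05 ± 0.27 (adjusted p = 0.047). Without the gonadal arrays of dogs 6 and 3 the count in control dogs was 2, with PTPN11, a phosphatase of receptor signalling, as the second (adjusted p = 0.0431, against 0.143 with all arrays). PTPN11 averaged below log2 4 in their subcutaneous fat, so no size is given. GRB14, an adaptor that binds receptor tyrosine kinases, had 6.76 ± 1.01 in subcutaneous fat of ad libitum dogs and 4.80 ± 0.89 in that of control dogs (adjusted p = 0.0588, and 0.0393 without the gonadal arrays of dogs 6 and 3).

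Of 7 measured genes of the endoglin and BMP pathway, 1 rose in gonadal fat of ad libitum dogs and 1 in that of control dogs. SMAD1, which carries the BMP signal to the nucleus, differed by 0.71 ± 0.19 in ad libitum dogs (limma, adjusted p = 0.0315). ID1, a target of that signal, had 8.72 ± 0.46 in gonadal and 6.25 ± 1.18 in subcutaneous fat of control dogs (SD, n = 4 each, adjusted p = 0.0493, and 0.0529 without those arrays). Among 4 measured adhesion genes ICAM1, which binds leukocytes, fell in gonadal fat of both feeding groups. It had 5.99 ± 0.65 in gonadal and 8.27 ± 0.83 in subcutaneous fat of ad libitum dogs (adjusted p = 0.00247), and 6.32 ± 0.60 and 8.79 ± 0.27 in control dogs (adjusted p = 0.00572). Among 4 measured lymphatic genes, the chemokine CCL21 was higher in gonadal fat of ad libitum dogs by 3.53 ± 0.99 (adjusted p = 0.0418, and 0.0535 without those arrays).

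Other tissue markers also differed between the depots. The mesothelium list stood at 6.64 to 9.82 in gonadal arrays and at 2.90 to 3.66 in subcutaneous arrays other than that of control dog 4. That array, which also held skeletal muscle and ciliated genes, stood at 7.54. The stromal list stood at 12.42 to 14.08 in gonadal and 13.20 to 14.98 in subcutaneous arrays, and the macrophage and leukocyte list at 4.47 to 6.58 and 6.47 to 9.32. Of 5 measured mesothelial genes 5 rose in gonadal fat of ad libitum dogs and 1 in that of control dogs (2 without the gonadal arrays of dogs 6 and 3). The median depot difference of these genes was 4.68 in ad libitum and 3.68 in control dogs, whose subcutaneous group holds the array of dog 4. The part of these tissues in the depot differences of SVEP1, SMAD1, ID1, ICAM1 and CCL21 was not tested.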

How the data were processed

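The deposited table holds 1 column of log2 values for each array, which the authors computed with GCRMA, per the submitters' processing notes. GCRMA's version and options and the base of the logarithm were not given in the sources used here, so values were read as log2 (0.68 to 16.51, array medians 3.65 to 3.87). Scanner files were not used here, and the number of arrays limits the precision. Probe sets at or above log2 4 in at least 4 of 18 arrays were tested (21484). In R 4.3.3, limma 3.58.1 fitted 1 mean per group to the 18 arrays together, without a term for the dog (14 residual degrees of freedom, 2.54 added by moderation), two-sided, with Benjamini-Hochberg adjustment over all tested probe sets and a threshold of 0.05. A gene is represented by its tested probe set with the highest mean.

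The 10 genes and all lists were chosen with earlier results of these data known. The text names all 10 genes, the called genes of each pathway list (or those with the smallest p), and for CDH5, ANGPT1 and ANGPT2 the 5 genes most like them. Both depots of a dog are paired through the animal number in the labels; within-dog correlations of deviations ran between -0.05 and 0.53. Alternatives were no filter, a filter at log2 6, 2 rescalings, trended and robust moderation, a fit to the compared arrays alone, a block for the dog (statmod 1.5.0), an actin covariate, the mean of a gene's probe sets, and leaving out dogs or arrays with other tissue. The fit was tested on simulated data.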

Additional observations from a re-analysis of the deposited data

Results flagged for a closer look

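In groups of 4 or 5 arrays, 6 of 40 gene and group combinations held 1 array far from the others by Dixon's test at 95%. The 10 genes share the same arrays and vary together, so the combinations are not independent and their number is not set against chance. Gonadal fat of ad libitum dog 6 gave 4 of the 6: PECAM1 was 10.72 there against 11.94 to 12.36 in the other ad libitum gonadal arrays, FLT1 was 4.78 against 6.61 to 6.66, ANGPT1 was 3.50 against 7.29 to 7.85, and ANGPT2 was 3.49 against 6.05 to 6.95. Gonadal fat of ad libitum dog 8 had the highest KDR, 10.08 against 9.28 to 9.47. Subcutaneous fat of ad libitum dog 5 had the highest ANGPT2, 7.51 against 6.11 to 6.48, in an array where the macrophage and leukocyte list stood at 9.32, the highest of all 18.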

How the results depend on the processing

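Under the alternatives run for each comparison, 21 in all, 0 of the 10 genes were called except without the gonadal arrays of dogs 6 and 3, which was chosen after seeing the data. There 1 gene, ANGPT1, was called for feeding in subcutaneous fat and for depot in ad libitum and in control dogs, in each case against 0. Of 1020 gene differences 70 changed sign, none of them called in either setting, and 69 of these were within 1 standard error of 0 as reported. Differences moved by over 1 SD in 12 cases, 11 of them without the 4 arrays with skeletal muscle or ciliated genes. That setting leaves only dogs 1 and 9 in the subcutaneous control group and dogs 5, 7 and 8 in the gonadal ad libitum group. The dog as a random replicate block changed no call among the 10 genes. It called 472 probe sets for feeding in subcutaneous fat (506 without the block), 2495 for depot in ad libitum dogs (1545) and 1346 for depot in control dogs (627), and 0 for feeding in gonadal fat and for the interaction. As a fixed replicate block it gave ANGPT1 depot differences of 0.79 and 1.5, with adjusted p of 0.476 and 0.247. Over all probe sets, leaving out 1 dog at a time gave 3 to 2703 calls for feeding in subcutaneous fat, 497 to 1620 and 143 to 1050 for depot in ad libitum and control dogs, and up to 5 for the interaction. The actin covariate left 1 call for feeding in subcutaneous fat. A fit to only the arrays of the comparison was not run for the interaction, which already uses all arrays. The fixed block was not run for the feeding comparisons, in which each dog is in 1 group.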
